A study of Mus musculus with 10 samples.

Results

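The genes described here are 40 genes of the cell cycle and of DNA replication, chosen by name for their known roles, out of the 23337 gene symbols of the count files. All 40 were present and all 40 passed the filter on low counts. They fall into 7 roles: 8 G1 cyclins and their kinases, 3 E2F transcription factors, 8 genes of origin licensing and the MCM helicase, 4 genes of the replication clamp and nucleotide supply, 7 genes of the S, G2 and M phase cyclins, Cdk1 and the Cdc25 phosphatases, 6 mitotic kinases and chromosome proteins, and 4 genes of the spindle checkpoint and the anaphase-promoting complex.

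A dividing cell passes from G1, in which cyclin D with Cdk4 or Cdk6 and then cyclin E with Cdk2 release E2F factors from the retinoblastoma protein, to S phase, in which licensed origins fire and the MCM helicase opens the DNA. Cyclin A and cyclin B with Cdk1 then drive mitosis, and the spindle checkpoint holds the anaphase-promoting complex with its activator Cdc20 until the chromosomes are attached. Many S phase genes are E2F targets. Many G2 and M phase genes are under the DREAM and MuvB complexes through the cell cycle homology region, and many hold CCAAT boxes as well. Type I interferon is known to slow the cycle of many cell types.

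The series holds 10 RNA-seq libraries of immortalised mouse embryonic fibroblasts (MEFs), made with a stranded total RNA kit. WT-labelled cells are wild type for Slfn2 and KO-labelled cells carry a knockout of it, and each was left untreated or given mouse interferon-β (IFN-β) at 5000 IU/ml for 6 h. Of the WT-labelled libraries 3 were untreated and 3 had IFN-β, and of the KO-labelled libraries 2 were untreated and 2 had it. The labels name a WT and a KO culture that were plated in replicate wells, and do not say how the cells were immortalised, which part of Slfn2 is missing or what a replicate number marks, so the p-values measure the spread between these libraries, which may be technical. The series title names a role of Slfn2 in the answer to type I interferon and in NF-κB signalling. Here the comparisons ask whether the cell cycle genes answered to IFN-β, differed between the labelled genotypes, or differed between replicate numbers.

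The libraries held 13565815 to 16329729 reads and the lowest read number of any of the 40 genes in any library was 71, for E2f2. Slfn2 itself (chromosome 11, 83065112 to 83070678, GRCm38) stood at 18.7, 17.4 and 15.5 normalised reads in untreated WT-labelled and at 46.1 and 34.9 in untreated KO-labelled libraries. With IFN-β it stood at 527, 449 and 573 in WT-labelled and at 75.0 and 171 in KO-labelled libraries. Untreated, the target of the knockout was thus higher in the libraries labelled KO (log2 difference 1.18 ± 0.36 SE at an adjusted p of 0.091 in limma, which was 0.039 once the replicate number was a block), and every genotype difference below is between labels. All 11 fibroblast markers were measured. Their summed level was 214406 to 314658 in WT-labelled libraries, 302097 and 349706 in the KO-labelled libraries numbered 1, and 479155 and 477470 in those numbered 2. Col1a1, Col1a2, Fn1, Vim and Col3a1 made up most of that sum, while Lum lay at 0.942 to 47.4 and Dcn at 77.3 to 2355 across libraries. Markers of other cell types were low in sum (macrophage and leukocyte 149 to 423, epithelial up to 7.70, endothelial up to 21.2, muscle up to 16.0), and Tyrobp, Krt5, Tie1, Myod1, Myog, Sox10 and Dcx were at 0 in every library. The summed neural list was 2402 to 4286 in WT-labelled and 1022 to 1386 in KO-labelled libraries, through Nes, Tubb3 and Sox2.

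Per kb of exon the 40 genes were well above the general level of these cells. Their median was 622 normalised reads per kb over 10 libraries, against 112 over the 11150 tested genes with an annotated length. Cdk4, the G1 kinase, was highest at 2928 per kb, with 2413 to 3438 across libraries, and its range did not overlap that of any other member. Mcm5 (1488 per kb), a subunit of the MCM helicase, Top2a (1308), the topoisomerase that separates sister DNA, Ccna2 (1302), cyclin A2, Mcm6 (1294) and Cdc20 (1271) followed, and the ranges of these 5 overlapped. At the other end Cdk6 (20.5 per kb) and E2f2 (21.1) had overlapping ranges, from 11.2 to 31.2 and from 15.0 to 27.5. Cdk6, the partner kinase of Cdk4, was thus far below Cdk4 per kb in every library.

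**Figure D1:**
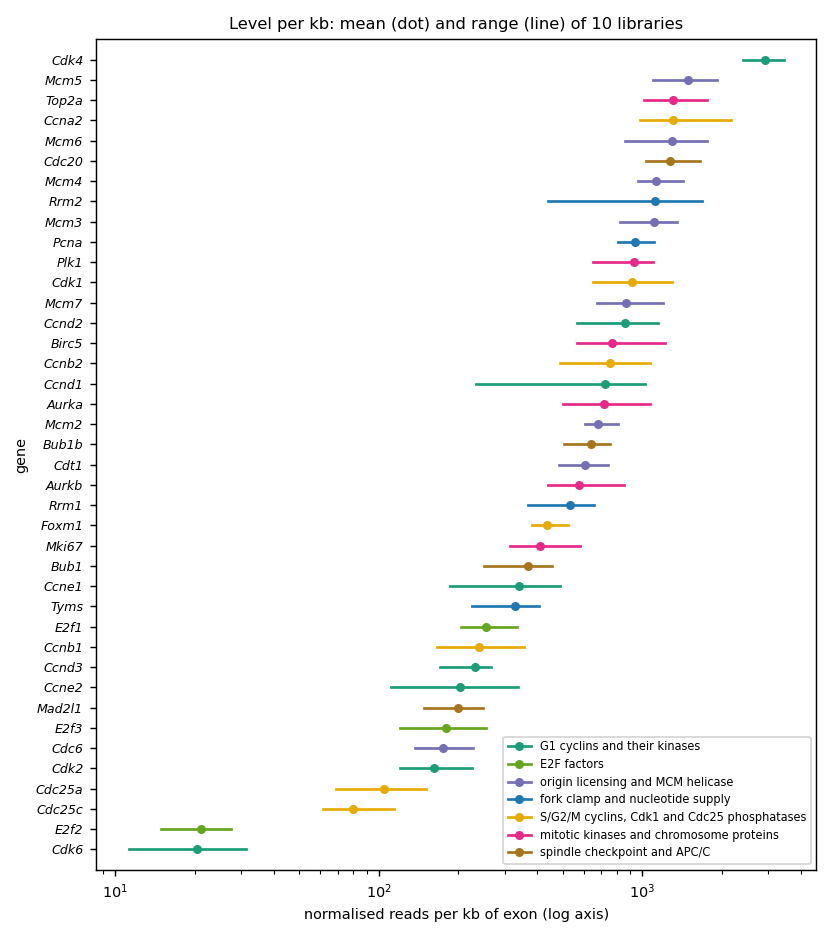
Level of each gene in normalised reads per kb of exon, on a log axis, with the mean of 10 libraries as a dot, the lowest to highest library as a line, and the role as colour. Cdk4 stands highest at 2928 per kb, and Cdk6 and E2f2 lowest at 20.5 and 21.1.

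RefSeq promoters (GRCm38.p6, 250 bases before to 50 bases after the start) matched 32 of the 40 genes, with 36 promoters in all. They were searched on both strands for 4 sets of words: the cell cycle homology region (TTTGAA or TTCGAA), E2F words (TTTGGCGC, TTTGCCGC, TTTCGCGC or TTTCCCGC), the CCAAT box, and an interferon-type repeat (GAAA, 2 bases of any kind and GAAA again). An E2F word was in 11 of 36 promoters (30.6%) against 2.26% of all 32851 promoters, and a CCAAT box in 25 (69.4%) against 37.4%. A cell cycle homology word was in 13 (36.1%) against 19.2%, and every one of those 13 also held a CCAAT box, a pair found in 7.52% of all promoters. The interferon-type repeat was in 1 (2.78%), that of Bub1b, against 3.44%. The words divided by role: 6 of 8 promoters of licensing and MCM genes held an E2F word, against 0 of 5 of the mitotic kinases and chromosome proteins and 0 of 4 of the spindle genes. A cell cycle homology word was in 4 of those 5 and 3 of those 4, and in 0 of 6 promoters of G1 cyclins and their kinases.

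The promoters printed next are those of 7 genes whose differences are given in this text: a mitotic kinase, Cdk1 and both B cyclins, an MCM gene, and the G1 to S pair Cdk2 and Ccne1. Capitals mark the words above on either strand, where neighbouring E2F words can overlap, and each sequence runs 5′ to 3′ on the gene's strand. Aurka is at chr2:172370521-172370820, Cdk1 at chr10:69352863-69353162, Ccnb1 at chr13:100786437-100786736, Ccnb2 at chr9:70421505-70421804, Mcm6 at chr1:128359656-128359955, Cdk2 at chr10:128705002-128705301 and Ccne1 at chr7:38107441-38107740, all 7 on the minus strand.
Aurka: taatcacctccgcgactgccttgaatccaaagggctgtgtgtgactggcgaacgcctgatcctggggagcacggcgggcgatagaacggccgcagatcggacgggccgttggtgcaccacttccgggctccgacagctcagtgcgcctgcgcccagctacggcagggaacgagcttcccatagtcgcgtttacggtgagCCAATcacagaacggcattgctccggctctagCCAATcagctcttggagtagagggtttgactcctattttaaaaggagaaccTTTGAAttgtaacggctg
Cdk1: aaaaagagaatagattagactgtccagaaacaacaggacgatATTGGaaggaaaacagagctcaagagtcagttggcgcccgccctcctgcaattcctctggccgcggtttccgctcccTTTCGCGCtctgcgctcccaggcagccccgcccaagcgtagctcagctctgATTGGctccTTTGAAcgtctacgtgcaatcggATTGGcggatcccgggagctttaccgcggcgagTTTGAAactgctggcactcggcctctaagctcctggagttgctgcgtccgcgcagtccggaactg
Ccnb1: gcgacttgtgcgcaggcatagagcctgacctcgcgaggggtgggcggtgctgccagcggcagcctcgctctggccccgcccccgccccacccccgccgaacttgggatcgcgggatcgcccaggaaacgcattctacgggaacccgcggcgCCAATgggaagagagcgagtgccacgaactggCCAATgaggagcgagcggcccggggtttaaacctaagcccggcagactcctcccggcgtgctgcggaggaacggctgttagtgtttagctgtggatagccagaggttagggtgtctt
Ccnb2: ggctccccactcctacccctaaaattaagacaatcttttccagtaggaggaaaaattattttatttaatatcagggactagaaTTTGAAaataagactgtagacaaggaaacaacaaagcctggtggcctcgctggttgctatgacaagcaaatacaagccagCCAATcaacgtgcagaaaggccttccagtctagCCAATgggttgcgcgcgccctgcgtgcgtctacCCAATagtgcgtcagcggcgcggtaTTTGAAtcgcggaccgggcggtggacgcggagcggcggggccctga
Mcm6: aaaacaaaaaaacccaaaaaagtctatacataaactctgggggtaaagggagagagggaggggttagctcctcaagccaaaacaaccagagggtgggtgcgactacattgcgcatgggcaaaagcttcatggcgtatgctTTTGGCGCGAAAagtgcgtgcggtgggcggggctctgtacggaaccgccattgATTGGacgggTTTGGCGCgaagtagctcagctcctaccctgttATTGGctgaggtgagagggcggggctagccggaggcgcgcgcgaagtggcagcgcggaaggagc
Cdk2: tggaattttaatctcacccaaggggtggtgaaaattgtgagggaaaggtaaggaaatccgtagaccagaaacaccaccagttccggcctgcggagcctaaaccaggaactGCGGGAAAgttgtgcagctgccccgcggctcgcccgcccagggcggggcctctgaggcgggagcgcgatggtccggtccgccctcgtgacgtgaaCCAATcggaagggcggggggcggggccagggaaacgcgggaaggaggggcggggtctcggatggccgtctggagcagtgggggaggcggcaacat
Ccne1: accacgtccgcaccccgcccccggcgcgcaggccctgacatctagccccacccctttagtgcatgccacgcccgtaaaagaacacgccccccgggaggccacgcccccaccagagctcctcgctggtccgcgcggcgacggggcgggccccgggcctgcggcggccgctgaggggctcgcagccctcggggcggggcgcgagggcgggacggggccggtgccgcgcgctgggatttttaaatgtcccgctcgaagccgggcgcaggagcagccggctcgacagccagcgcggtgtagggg
Ccnb1 and Ccnb2 both hold CCAAT boxes, and in these windows Ccnb2 but not Ccnb1 holds a cell cycle homology word. The Ccne1 window holds none of the words searched. A match is a string of letters and was not tested as a binding site.

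**Figure D2:**
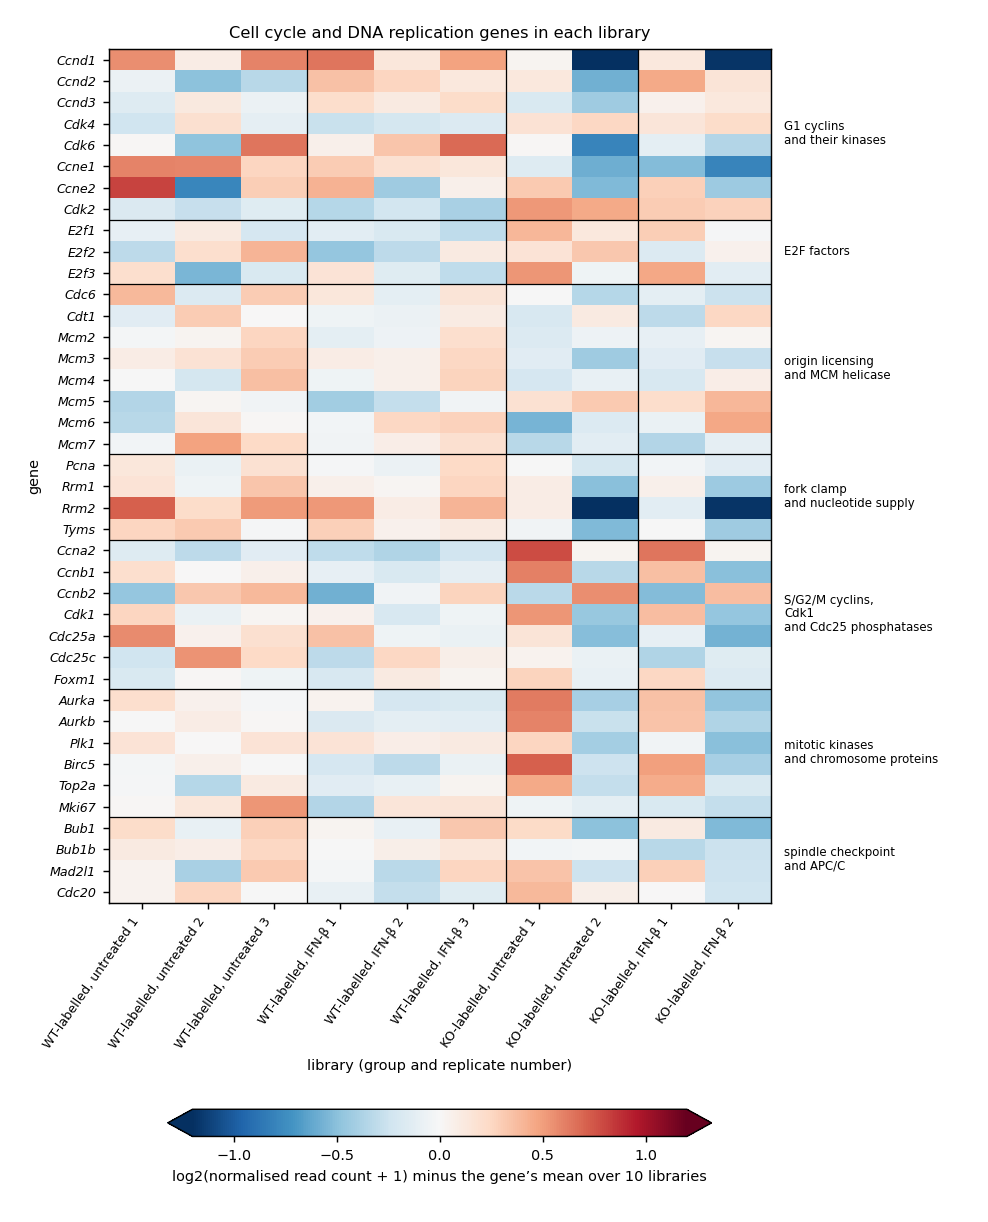
Each row is a gene, grouped by role, and each column a library, with the colour giving log2(normalised read count + 1) minus the gene's own mean over 10 libraries (scale limited to 1.2 either way). The KO-labelled libraries numbered 1 are high and those numbered 2 low over much of the S, G2 and M phase and mitotic rows, while the columns of a number look alike with and without IFN-β.

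After 6 h of IFN-β none of the 40 genes passed the test in either labelled genotype. The test was limma on log2(normalised read count + 1), two-sided, with Benjamini-Hochberg adjustment over the 12313 genes tested and a threshold of 0.05. Of all genes tested 2.21% passed in WT-labelled and 1.84% in KO-labelled cells, and at an unadjusted p under 0.05 there were 1 and 2 of the 40. Their median log2 difference was −0.09 in WT-labelled cells (10 genes above 0 and 30 below) and −0.06 in KO-labelled cells (16 above and 24 below), against −0.03 over all genes in both. The KO-labelled median moved to between −0.26 and 0.20 when 1 of the 4 KO-labelled libraries was left out. In bulk RNA, fewer cells in a phase and less RNA per cell cannot be told apart.

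With the replicate number as a block 1 gene rose in each labelled genotype, against 4.95% of all genes passing in WT-labelled cells (4.68% as higher) and 3.48% in KO-labelled cells (3.37% as higher). Ccnd2, cyclin D2 (chromosome 6, 127125162 to 127152193), had 7517, 5606 and 6285 normalised reads in untreated WT-labelled libraries 1 to 3 and 10092, 9426 and 8635 after treatment. The KO-labelled libraries had 8632 and 5313 untreated, and 10816 and 8782 treated. Each of the 5 treated libraries was above the untreated library of its own number, and in WT-labelled cells the groups did not overlap. With the block the log2 difference was 0.54 ± 0.11 SE in WT-labelled cells (adjusted p = 0.029), a call lost without any of the untreated WT-labelled libraries, WT-labelled IFN-β libraries 2 or 3, or KO-labelled IFN-β library 2 (highest adjusted p = 0.135), and 0.53 ± 0.14 in KO-labelled cells (adjusted p = 0.11).

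Mcm6, an MCM helicase subunit (chromosome 1, 128331590 to 128359664), had 4015 and 5290.4 normalised reads in untreated KO-labelled libraries 1 and 2 and 5619 and 8184 with IFN-β. In WT-labelled cells it had 4705, 6567 and 5986 untreated and 5806, 7025 and 7187 with IFN-β, with groups that overlap. It was higher with IFN-β in all 5 pairs of a number, by 0.10 to 0.63 on the log2 scale. With the block the difference was 0.56 ± 0.10 SE in KO-labelled cells (adjusted p = 0.016, lost without any of the 4 KO-labelled libraries or either library numbered 3, with a highest adjusted p of 0.286) and 0.22 ± 0.08 in WT-labelled cells (adjusted p = 0.23). The difference between the responses did not pass with the block or without it. It is given from the fit without the block (0.34 ± 0.31, adjusted p = 1), so its SE is not comparable with the blocked SEs above. The other 5 MCM genes lay between −0.15 and 0.09 in both labelled genotypes.

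Most of the remaining genes lay slightly lower with IFN-β. Between libraries of the same number, 14 of the 40 genes (35%) were lower with IFN-β in all 5 pairs, where 16.9% of all genes were, and 2 were higher in all 5, where 14.4% of all genes were. The 14 held 5 of the 7 S, G2 and M phase genes (Ccnb1, Ccnb2, Cdk1, Cdc25a and Cdc25c), 3 of the 6 mitotic genes (Aurka, Aurkb and Birc5), Bub1b and Cdc20 of the spindle checkpoint, Cdk4, Ccne1, E2f1 and E2f2, and none of the 8 licensing and MCM genes. Cdc20, the activator of the anaphase-promoting complex, had 2427, 2814 and 2338 normalised reads in untreated WT-labelled libraries and 2213, 1934 and 2122 with IFN-β, groups that did not overlap, at a log2 difference of −0.27 ± 0.11 SE with the block (adjusted p = 0.31). None of the 14 passed the test in either fit. Of the 114 other cell cycle genes tested, 28 (24.6%) were lower in all 5 pairs. By list these were 36.8% of 38 mitosis and cytokinesis genes, 28.6% of the DNA synthesis genes, 20% of the origin recognition genes, 16.7% of the checkpoint genes, 6.67% of the pocket protein and E2F genes and 0% of the CDK inhibitor genes. Over the 11150 tested genes with a transcript, the IFN-β difference went with the GC content of the transcript. Spearman's rho was −0.38 in WT-labelled and −0.26 in KO-labelled cells, and −0.23 and −0.20 over the 40 genes, all values from the same libraries. The calls of the blocked fit with that GC trend removed are counted in the closing section. The part of GC in the counts over 5 pairs was not tested.

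**Figure D3:**
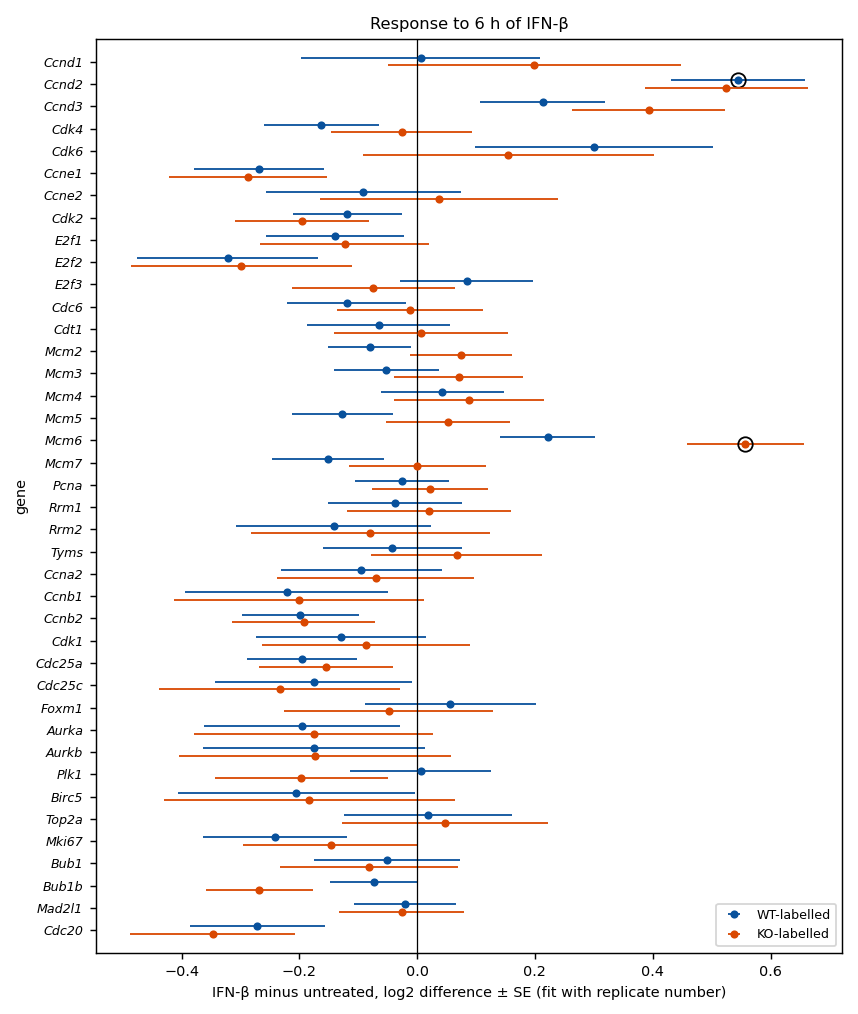
IFN-β minus untreated for each gene as a log2 difference with its SE, from the fit with the replicate number as a block, in WT-labelled (blue) and KO-labelled (orange) cells. Rings mark the calls at adjusted p under 0.05, Ccnd2 in WT-labelled and Mcm6 in KO-labelled cells.

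Among 114 other cell cycle genes tested, none passed without the block. With it 3 rose in WT-labelled and 2 in KO-labelled cells, against 4.95% and 3.48% of all genes. Pttg1, securin, rose by 0.75 ± 0.13 SE (adjusted p = 0.013) in WT-labelled and by 0.79 ± 0.16 (adjusted p = 0.035) in KO-labelled cells. Cenpe, a kinetochore motor, rose by 0.63 ± 0.13 (adjusted p = 0.031) and 0.78 ± 0.16 (adjusted p = 0.039), and Timeless, a fork protection factor, by 0.35 ± 0.08 (adjusted p = 0.039) in WT-labelled cells. The CDK inhibitor genes Cdkn1a and Cdkn1b, the retinoblastoma gene Rb1 and the checkpoint kinase genes Chek1 and Wee1 did not pass in either labelled genotype, with log2 differences of 0.01, 0.11, 0.13, 0.16 and 0.07 in WT-labelled cells.

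None of the 40 passed a test of a different response between the labelled genotypes. In limma 0 of the 40 passed this interaction test and 0% of all genes did, 0 of the 40 had an unadjusted p under 0.05, and edgeR and DESeq2 also called 0 of the 40. The 40 differences between responses lay between −0.20 and 0.34 on the log2 scale. Only Mcm2 was lower with IFN-β in every WT-labelled pair (−0.09, −0.09 and −0.06) and higher in every KO-labelled pair (0.07 and 0.08), at an interaction of 0.16 ± 0.21 SE (adjusted p = 1).

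Between the labelled genotypes, Cdk2 was higher and Ccne1, which encodes its partner cyclin E1, was lower in KO-labelled cells, with and without IFN-β. These 2 were the only members to pass in either treatment, 5% of the 40 against 6.23% of all genes untreated and 6.55% with IFN-β. The 2 comparisons share no library, but the libraries of a number are correlated across treatments.

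Cdk2 (chromosome 10, 128697939 to 128705031, minus strand) had 869, 809 and 889 normalised reads in untreated WT-labelled and 1406 and 1346 in untreated KO-labelled libraries. With IFN-β it had 772, 845 and 748 in WT-labelled and 1210.3 and 1193 in KO-labelled libraries. All 4 KO-labelled libraries were above all 6 WT-labelled libraries. The log2 difference was 0.69 ± 0.13 SE untreated (adjusted p = 0.015) and 0.61 ± 0.13 with IFN-β (adjusted p = 0.025). The call was lost untreated without either KO-labelled untreated library (highest adjusted p = 0.0874) and with IFN-β without any of the 5 IFN-β libraries (highest adjusted p = 0.147). Exons of Cdk2 overlap Pmel on the opposite strand, and as the strand setting of the counting is not given, reads of the pair may not be told apart.

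Ccne1 (chromosome 7, 38097984 to 38107534, minus strand) had 1298, 1289 and 1025 normalised reads in untreated WT-labelled and 772 and 572 in untreated KO-labelled libraries. With IFN-β it had 1061, 978 and 946 in WT-labelled and 598 and 496 in KO-labelled libraries. All 4 KO-labelled libraries were below all 6 WT-labelled libraries. The log2 difference was −0.85 ± 0.19 SE untreated (adjusted p = 0.030) and −0.87 ± 0.19 with IFN-β (adjusted p = 0.027). The untreated call ended without WT-labelled untreated libraries 1 or 2, any WT-labelled IFN-β library or KO-labelled untreated library 2, and the call with IFN-β without any of the 5 IFN-β libraries (highest adjusted p = 0.205 and 0.196). With the block and any 1 library left out it held in both (highest adjusted p = 0.0254 and 0.0226). With the libraries numbered 1 and 2 alone neither gene passed in either treatment (adjusted p = 0.0798 for both untreated). Ccne2, the gene of cyclin E2, did not pass, at −0.22 ± 0.48 and −0.09 ± 0.48.

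With the replicate number as a block, 10 of the 40 genes (25%) passed untreated and 9 (22.5%) with IFN-β, against 26.6% and 26% of all genes. The same 7 passed in both: Cdk2, Ccna2 and Mcm5 were higher and Ccnd1, Ccne1, Cdc25a and Rrm2 lower in KO-labelled cells. Mcm3, Mcm7 and Tyms were lower untreated (−0.41, −0.43 and −0.53), all lost without KO-labelled untreated library 2. The call of Mcm3 was also lost without either library numbered 3, and that of Mcm7 without KO-labelled untreated library 1. With IFN-β Cdk4 was higher (0.39) and Bub1b lower (−0.32), calls that held only when the library left out was WT-labelled untreated 1 or 2. Exons of Mcm7 overlap Cops6 and Ap4m1, and those of Cdk4 overlap Tspan31, on the opposite strand. The members' shares are close to those of all genes. Without KO-labelled untreated library 2 the untreated count was 3, and the IFN-β count was 5 and 4 without WT-labelled IFN-β libraries 1 and 2, and 4 and 2 without KO-labelled IFN-β libraries 1 and 2.

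Ccna2, cyclin A2 (chromosome 3, 36564865 to 36572150), had 4601, 4114 and 4647 normalised reads in untreated WT-labelled and 8832 and 5233 in untreated KO-labelled libraries. With IFN-β it had 4134, 3991 and 4376, and 7987 and 5247. All KO-labelled libraries were above all WT-labelled ones, and those numbered 1 stood furthest apart. With the block the log2 difference was 0.65 ± 0.16 SE untreated (adjusted p = 0.021) and 0.67 ± 0.16 with IFN-β (adjusted p = 0.018), lost without library 1 of either untreated group, and with IFN-β without WT-labelled library 1 or either KO-labelled library (highest adjusted p = 0.164 and 0.147). Exons of Ccna2 overlap Exosc9 on the opposite strand.

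Mcm5 (chromosome 8, 75109569 to 75128439) had 4582, 5950.1 and 5685 normalised reads in untreated WT-labelled and 6629 and 7279 in untreated KO-labelled libraries. With IFN-β it had 4372, 4787 and 5688, and 6743 and 7694. The labelled genotypes did not overlap in either treatment, at 0.44 ± 0.10 SE (adjusted p = 0.015) and 0.62 ± 0.10 (adjusted p = 0.0035) with the block. The call with IFN-β held without any 1 library, and the untreated call was lost without WT-labelled library 1 or either KO-labelled library (highest adjusted p = 0.101). No other of the MCM genes was higher in KO-labelled cells in a passing test.

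Ccnd1, cyclin D1 (chromosome 7, 144929931 to 144939925), had 4544, 3285 and 4655 normalised reads in untreated WT-labelled and 3164 and 1103 in untreated KO-labelled libraries. With IFN-β it had 4811, 3399 and 4304, and 3374 and 1363. KO-labelled libraries numbered 2 held the lowest values of all 10, and those numbered 1 lay just below the lowest WT-labelled library of their treatment. The blocked difference was −1.08 ± 0.24 SE untreated (adjusted p = 0.013) and −0.88 ± 0.24 with IFN-β (adjusted p = 0.028). The calls were lost untreated without WT-labelled or KO-labelled library 2, and with IFN-β without WT-labelled untreated library 3, WT-labelled IFN-β libraries 2 or 3, or KO-labelled IFN-β library 2 (highest adjusted p = 0.126 and 0.215). Ccnd2 and Ccnd3 did not pass (0.04 ± 0.13 and −0.27 ± 0.12 untreated), and Ccnd1 was the only D cyclin gene to pass.

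Rrm2, the small subunit of ribonucleotide reductase, which supplies deoxynucleotides (chromosome 12, 24708241 to 24714146), had 4679, 3321 and 4055 normalised reads in untreated WT-labelled and 3034 and 1214 in untreated KO-labelled libraries. With IFN-β it had 4097, 3029 and 3781, and 2618 and 1259. All KO-labelled libraries of a treatment were below all WT-labelled ones, at −1.03 ± 0.19 SE (adjusted p = 0.0067) and −0.97 ± 0.19 (adjusted p = 0.0090) with the block. The calls were lost without KO-labelled library 2 of the treatment, and with IFN-β also without WT-labelled library 2 (highest adjusted p = 0.0650 and 0.0860). Rrm1, the large subunit, did not pass (−0.27 ± 0.13 and −0.22 ± 0.13). Cdc25a, the phosphatase that activates Cdk2 (chromosome 9, 109875579 to 109893895), was lower by −0.51 ± 0.11 (adjusted p = 0.012) and −0.46 ± 0.11 (adjusted p = 0.017), lost untreated without KO-labelled library 2 and with IFN-β without number 1 or 2 of either genotype (highest adjusted p = 0.140 and 0.126).

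Of the 114 other cell cycle genes 2 passed in each treatment without the block (6.23% and 6.55% of all genes). Orc6, a subunit of the origin recognition complex, had 3031, 2470.1 and 2055 normalised reads in untreated WT-labelled and 7766 and 5427 in untreated KO-labelled libraries, and with IFN-β 2719, 2183 and 2139.6, and 7757 and 5959. It was higher by 1.38 ± 0.23 SE (adjusted p = 0.0080) and 1.54 ± 0.23 (adjusted p = 0.0046), a call lost untreated without KO-labelled untreated library 1 (adjusted p = 0.0573). Smc4, a condensin subunit, was higher untreated by 0.82 ± 0.20 (adjusted p = 0.047, lost without any 1 library, with a highest adjusted p of 0.194). Cdc25b, a phosphatase that activates Cdk1, was lower with IFN-β by −0.70 ± 0.15 (adjusted p = 0.025, lost without any of the 5 IFN-β libraries, with a highest adjusted p of 0.156). With the block 21 passed untreated (18.4%, against 26.6% of all genes) and 17 with IFN-β (14.9%, against 26%), among them Orc1, E2f4, Pold1 and Cdc25b lower and Prim1, Smc4, Cenpe, Timeless and E2f6 higher in both. Cdkn1b, the gene of the CDK inhibitor p27, was among the higher genes in both (0.77 ± 0.14, adjusted p = 0.0062 and 0.45 ± 0.14, adjusted p = 0.0496). Cdkn1a, Rb1, Chek1 and Wee1 did not pass.

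**Figure D4:**
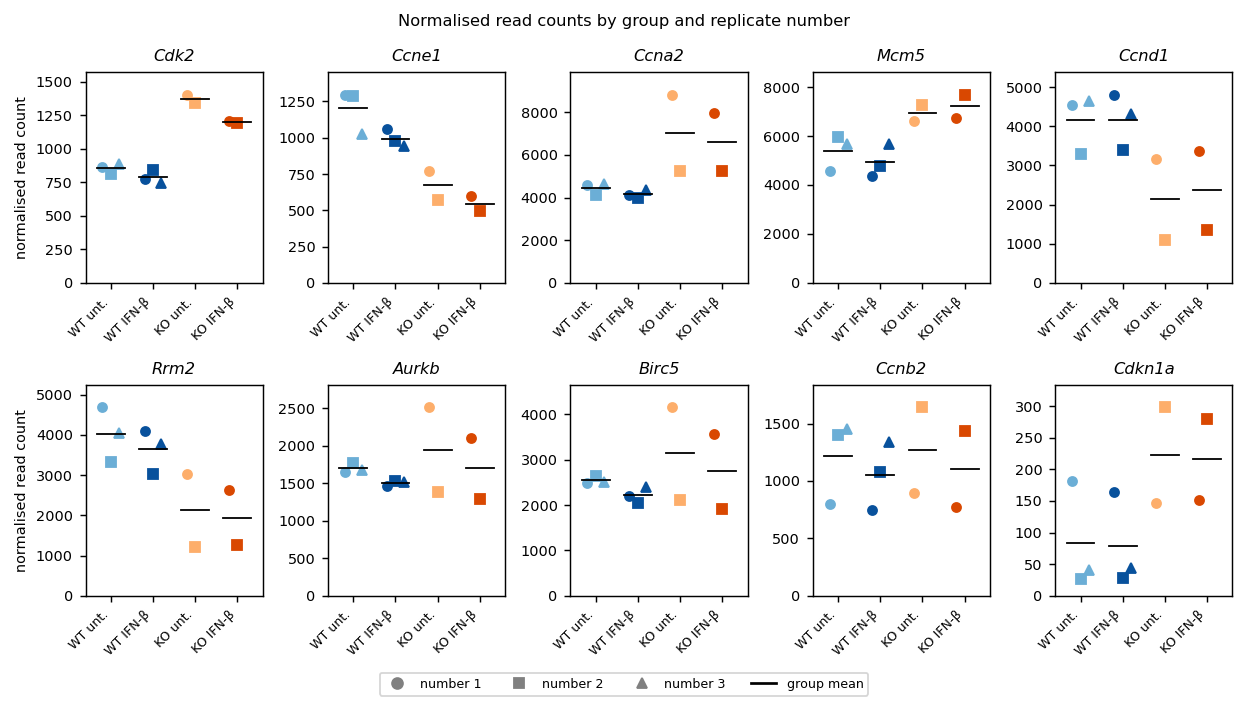
Normalised read counts by group (WT-labelled and KO-labelled, untreated or IFN-β) for 9 members and the CDK inhibitor gene Cdkn1a. Symbols give the replicate number and lines the group mean, and each axis starts at 0. Cdk2 and Ccne1 divide by genotype, whereas Ccnb2 divides by number. In Aurkb and Birc5 the numbers lie apart in KO-labelled but not in WT-labelled cells. In Cdkn1a they lie apart in both, in opposite directions.

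Replicate numbers 1 and 2 exist in all 4 groups, and what they mark is not given in the labels. Of the 40 genes 21 passed between the libraries numbered 2 and those numbered 1 (52.5%), 5 higher and 16 lower, where 48.6% of all genes passed, 25.3% higher and 23.3% lower. The median of the 40 was −0.24 on the log2 scale, against 0.02 over all genes. The count was 11 or 12 without any 1 of the KO-labelled libraries, and within the WT-labelled libraries alone it was 11, where 34.6% of all genes passed. Within the KO-labelled libraries alone 23 of the 40 passed (57.5%, against 47.2% of all genes). By role, 4 of the 8 licensing and MCM genes were higher in number 2 (Cdt1, Mcm5, Mcm6 and Mcm7) and 1 lower (Cdc6), whereas the calls in the G1, E2F, nucleotide, mitotic and spindle roles were all lower. The S, G2 and M phase role had 4 lower calls and 1 higher. Of the 4 higher licensing and MCM calls, those of Cdt1, Mcm5 and Mcm7 were lost with the GC trend of the transcripts removed (adjusted p = 0.402, 0.0753 and 0.0535) and in 8, 8 and 5 of 10 fits with 1 library left out, among them the fits without any 1 of the KO-labelled libraries. Mcm5 was also lost in edgeR and DESeq2, and Mcm6 passed in every setting run.

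The differences of the B cyclins had opposite signs. Ccnb2 (chromosome 9, 70407692 to 70421547) had 804, 748, 891 and 777 normalised reads in the 4 libraries numbered 1 and 1396, 1081, 1640.35 and 1439 in the 4 numbered 2, with WT-labelled before KO-labelled cells and the untreated library first in each. Ccnb1 (chromosome 13, 100778650 to 100786570) had 1142, 925, 1507 and 1279 in number 1 and 996, 874, 788 and 703 in number 2. Ccnb2 was thus higher in every library numbered 2 than in any numbered 1, and Ccnb1 lower in number 2 in each of the 4 groups. The log2 differences were 0.77 ± 0.09 SE (adjusted p = 0.00035) and −0.52 ± 0.15 (adjusted p = 0.021). The Ccnb2 call held in every setting and with any 1 library left out. That of Ccnb1 was lost without any 1 of the KO-labelled libraries (highest adjusted p = 0.0891), within the WT-labelled libraries (adjusted p = 0.277) and with the GC trend removed (adjusted p = 0.0740). Named pseudogenes of both, Ccnb1-ps and Ccnb2-ps, could share reads with them. The lowest difference of the 40 was that of Ccne2, cyclin E2, with 1177, 896, 835 and 822 in number 1 and 390.2, 499, 464 and 497 in number 2, a difference of −1.001 ± 0.14 (adjusted p = 0.0010) without overlap. Exons of Ccne2 overlap Ints8 on the opposite strand.

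The other members differed by number as follows. Of the G1 cyclins Ccnd1 was lower in number 2 by −0.95 ± 0.18 SE and Ccnd2 by −0.38, and of the E2F factors E2f3 by −0.56. Of the licensing factors Cdc6, which loads the helicase, was lower (−0.32) and Cdt1, its partner, higher (0.32), as were Mcm6 (0.42 ± 0.07), Mcm7 (0.27) and Mcm5 (0.21). Rrm2 (−0.83 ± 0.14) and Rrm1 (−0.34) were lower, as were Cdk1 (−0.60 ± 0.13), Cdc25a (−0.51 ± 0.08) and Ccna2 (−0.39). Of the mitotic and spindle genes Aurka (−0.56), Top2a (−0.41), the mitotic kinase gene Plk1 (−0.34), and the checkpoint genes Mad2l1 (−0.46) and Bub1 (−0.45) were lower. Mki67, the Ki-67 proliferation antigen, lay between 3177 and 5827 normalised reads and did not pass here. Ccnd3 (1505 to 2347 normalised reads), Cdk6 (157 to 437), Pcna (1938 to 2655), the replication clamp, and Cdc20 (1934 to 3089.7) passed in no comparison with or without the block.

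Between numbers 3 and 1, which rests on WT-labelled libraries, 8 of the 40 passed (20%, against 24.6% of all genes), and between 3 and 2 only Mad2l1, a spindle checkpoint gene, was higher (2.5%, against 2.08%). DESeq2 called 4 of the 40 (10%) in that comparison, and the Mad2l1 call was lost with the GC trend removed (adjusted p = 0.0735) and without WT-labelled untreated library 3, WT-labelled IFN-β library 1 or 3, or KO-labelled IFN-β library 1 (highest adjusted p = 0.412). Over the 40 genes the difference of number 2 from 1 went with transcript GC (Spearman's rho 0.43) and that of 3 from 2 against it (−0.63), and over 11150 genes at 0.24 and −0.40, from the same libraries. With the GC trend removed from each library, 18 of the 40 passed between 2 and 1, of which 13 were among the 21 named before. Bub1, Ccna2, Ccnb1, Cdt1, Mcm5, Mcm7, Rrm1 and Top2a were lost, and Ccnd3, Ccne1, Cdc20, Cdc25c and E2f1 were added. Of the 6 CDK inhibitor genes tested, 4 were higher in number 2 (66.7%, against 25.3% of all genes as higher), led by Cdkn2b (1.78 ± 0.18, adjusted p = 0.00027), Cdkn2c (1.03 ± 0.08, adjusted p = 9.8e-05) and Cdkn2a (1.02 ± 0.12, adjusted p = 0.00044).

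The difference between numbers 1 and 2 was itself not the same in both labelled genotypes for a group of mostly G2 and M phase genes. In a fit added after the values were seen, with the number nested in the genotype, 9 of the 40 genes (22.5%) passed for a different step from number 1 to number 2, where 4.4% of all genes passed, and all 9 were lower, where 2.01% of all genes were lower. They were Ccnb1, Ccna2, Cdk1 and Foxm1 of the S, G2 and M phase genes, Aurka, Aurkb and Birc5 of the mitotic genes, Ccnd1 and Rrm2. No gene of the spindle role was among them. As each group holds 1 library of each number, the p-values of these steps, here and below, measure no spread among replicates of a number. Ccnb2 was not among the 9 either, and was higher in number 2 in both labelled genotypes. Its number 1 minus number 2 was −0.88 and −0.89 (log2) in KO-labelled and −0.80 and −0.53 in WT-labelled cells, untreated and with IFN-β. Of the 40 genes 32 had a lower step in KO-labelled cells, with a median of −0.26 against 0.02 over all genes. The calls rest on few libraries: 0 of the 40 passed in the absence of any 1 of the 4 KO-labelled libraries or of the untreated WT-labelled library 1. The count was 1 when the WT-labelled library 1 with IFN-β was left out, and 3 when either or both libraries numbered 3 were. It rose to 14 when the untreated WT-labelled library 2 was left out, and to 22 when library 2 with IFN-β was.

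Birc5, survivin, a member of the chromosomal passenger complex (chromosome 11, 117849251 to 117855743), had 4152 and 3566 normalised reads in the KO-labelled libraries numbered 1, untreated and with IFN-β, and 2123 and 1916 in those numbered 2. The 6 WT-labelled libraries lay between 2037.5 and 2638. The KO-labelled libraries numbered 1 were the highest of all 10, and of those numbered 2 the untreated one lay within and the IFN-β one below the WT-labelled range. The step was −0.93 ± 0.10 SE in KO-labelled and −0.01 ± 0.10 in WT-labelled cells, a difference of −0.92 ± 0.14 (adjusted p = 0.012).

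Aurkb, the kinase of the same complex (chromosome 11, 69045647 to 69051664), had 2512 and 2108 normalised reads in the KO-labelled libraries numbered 1, 1383 and 1295 in those numbered 2, and 1468 to 1766 in WT-labelled libraries. Aurka, the spindle pole kinase (chromosome 2, 172356190 to 172370535), had 2719 and 2249, then 1338 and 1267, and 1532 to 2030.25. Cdk1, the mitotic kinase (chromosome 10, 69335146 to 69352938), had 6398 and 5702, then 3235 and 3216, and 3875 to 5287. In these 3 genes, and in Ccnb1, the KO-labelled libraries numbered 1 were the highest and those numbered 2 the lowest of all 10. The differences of the steps were −0.86 ± 0.12 SE for Aurkb (adjusted p = 0.011), −0.73 ± 0.13 for Aurka (adjusted p = 0.022), −0.61 ± 0.12 for Cdk1 (adjusted p = 0.031) and −0.76 ± 0.13 for Ccnb1 (adjusted p = 0.021). Foxm1, a transcription factor of G2 and M phase genes (chromosome 6, 128362967 to 128376146), had 2993 and 2958, then 2349 and 2222, and 2186 to 2681 in WT-labelled libraries, with a difference of −0.63 ± 0.12 (adjusted p = 0.028).

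Seen by number, 4 genes passed between genotypes at both numbers with opposite signs: Aurka, Aurkb, Ccnb1 and Cdk1. Each such difference compares 2 libraries with 2, an untreated and an IFN-β one of each genotype, which may share a culture. Its SE comes from the residual spread of the nested fit over all 10 libraries. As a group holds 1 library of each number, spread among replicates of a number was not measured. In the libraries numbered 1, 17 of the 40 genes passed, 13 higher and 4 lower in KO-labelled cells (42.5%, against 32.9% of all genes, 16.2% higher and 16.7% lower). In those numbered 2, 20 passed, 4 higher and 16 lower (50%, against 41.2% of all genes, 20.6% in each direction). Of the 11 that passed at both, 7 kept their direction (Cdk2, Ccna2 and Mcm5 higher, and Ccnd1, Ccne1, Cdc25a and Rrm2 lower, the 7 named above) and 4 had opposite signs: Aurkb (0.56 and −0.30), Aurka (0.37 and −0.36), Ccnb1 (0.43 and −0.33) and Cdk1 (0.29 and −0.32), each ± 0.08 or 0.09 SE. Of the 6 mitotic genes only Aurka and Aurkb passed at both numbers, while Birc5 and Top2a passed at number 1 and Plk1 and Mki67 at number 2. With 1 library left out, the Aurkb call at number 2 and the Cdk1 call at number 1 were lost in 8 of 10 fits each, and the Ccnb1 call at number 2 in 6. The Aurka and Ccnb1 calls at number 1 were lost in 4 of 10 such fits each. Aurkb and Ccnb1 at number 2 were also lost in DESeq2. With the libraries numbered 1 and 2 alone, Aurkb and Ccnb1 at number 2 and Cdk1 at number 1 were lost. The count at number 1 was 3 without either KO-labelled library of that number, 10 and 8 without the WT-labelled ones, and 26 without either WT-labelled library numbered 2. At number 2 it was 3 and 7 without the KO-labelled libraries of that number, untreated and IFN-β.

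Over the 10 libraries, both KO-labelled libraries numbered 2 were the lowest for 15 of the 40 genes (37.5%, against 14.3% of all genes) and the highest for Cdk4 and Mcm5 (5%, against 15.5%). Both KO-labelled libraries numbered 1 were the highest for 10 (25%, against 12%), namely E2f1, E2f3, Ccna2, Ccnb1, Cdk1, Foxm1, Aurka, Aurkb, Birc5 and Top2a, and the lowest for Cdt1 and Mcm7 (5%, against 10.7%). For the 6 mitotic genes the median ratio of number 1 to number 2 in KO-labelled cells was 1.74 untreated and 1.59 after IFN-β, where all 6 were higher in number 1, while in WT-labelled cells it was 1.03 and 1.01. For the 8 licensing and MCM genes it was 0.92 and 0.86 in KO-labelled and 0.86 and 0.94 in WT-labelled cells. The summed fibroblast markers were also highest in the KO-labelled libraries numbered 2 (479155 and 477470), and their part in these differences was not tested.

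**Figure D5:**
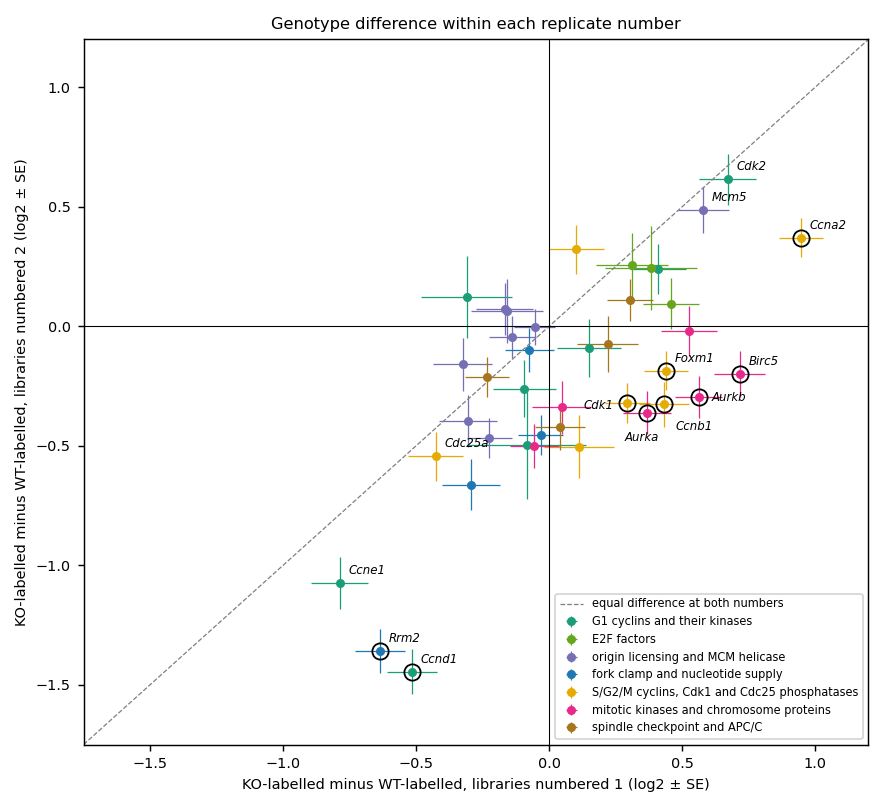
KO-labelled minus WT-labelled log2 difference of each gene in the libraries numbered 1 (horizontal) and numbered 2 (vertical), with SE bars, the role as colour, and a dashed line where the differences would be equal. Rings mark the 9 genes with a different step between numbers, all below the dashed line, and Aurka, Aurkb, Ccnb1 and Cdk1 lie where the difference is above 0 at number 1 and below 0 at number 2.

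The other listed mitosis genes were split in a like way, but their step calls, and that of Mybl2, are given without leaving out libraries. Of 38 further mitosis and cytokinesis genes 18 passed at number 1 (47.4%, against 32.9% of all genes), 17 of them higher in KO-labelled cells, led by Smc4 (0.89 ± 0.14), Cenpe (0.74 ± 0.16), Ube2s (0.66 ± 0.17) and Kif11 (0.64 ± 0.13). At number 2, 14 passed (36.8%, against 41.2%) and 12 of them were lower, led by Cdc25b (−0.76 ± 0.09) and Bub3 (−0.52 ± 0.09), while Smc4 and Cenpe were higher (0.81 ± 0.14 and 0.56 ± 0.16). All 38 had a lower step in KO-labelled cells, a count given without the share of all genes. Of these, 5 passed (13.2%, against 4.4% of all genes, and 2.01% as lower): Ccnf, Ube2c, Cdca8, Incenp and Kif2c (−1.01, −0.90, −0.89, −0.81 and −0.61). Mybl2, the B-Myb transcription factor that acts with the MuvB complex, had 1146 and 1134 normalised reads in the KO-labelled libraries numbered 1, 437 and 476 in those numbered 2 and 795 to 1175 in WT-labelled libraries, a difference of −0.85 ± 0.15 (adjusted p = 0.020).

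Cdkn1a, the gene of the CDK inhibitor p21, had the opposite sign in that contrast and the largest value of the 114. It had 147 and 152 normalised reads in the KO-labelled libraries numbered 1 and 298 and 279 in those numbered 2. In WT-labelled cells it had 181 and 165 in number 1, 26.1 and 28.0 in number 2 and 41.3 and 43.3 in number 3. The KO-labelled libraries numbered 2 were thus highest and the WT-labelled ones of that number lowest, and at number 1 the genotypes lay close together (−0.21 ± 0.17 SE, adjusted p = 0.38). At number 2 the difference was 3.37 ± 0.17 (adjusted p = 7.9e-06), and it held without any 1 library. The difference of the steps was 3.57 ± 0.24 (adjusted p = 0.00088, and up to 0.0591 without KO-labelled untreated or IFN-β library 1). Cdkn1b was higher at both numbers (0.56 ± 0.14 and 0.65 ± 0.14, adjusted p = 0.019 and 0.0078).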

How the data were processed

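RNA-seq was done on 10 libraries of mouse fibroblasts in 4 groups. The authors used cutadapt 1.13, STAR 2.5.2a, HTSeq, DESeq2 and build mm10, per the submitters' processing notes, and the strand setting of the counting is not given in the sources used here. The deposited signal per gene is a read count divided by 1 size factor per library, as found from the values: 100% were whole multiples of 1 step (within 0.001 reads), which gave back 13565815 to 16329729 reads per library.

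The test was limma 3.58.1 (R 4.3.3) on log2(normalised count + 1), with 4 group means over all 10 libraries and no replicate block. Genes passed edgeR's filter (edgeR 4.0.16, minimum count 10), p-values were adjusted by Benjamini-Hochberg over 12313 genes, and the threshold was 0.05. Fold changes of low genes are understated by the added 1. Number comparisons used group and replicate number. The fit with number nested in genotype, the GC alternatives and the counts of highest and lowest libraries were added after the values were seen. Counts of recovered reads were also tested with edgeR and DESeq2 1.42.0. The limma fits by group and with nested number were tested on simulated data. The simulated libraries varied independently apart from the set changes, unlike the same-numbered libraries here. The fit with the replicate block was not simulated.

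Same-numbered libraries deviated together from their group means (r 0.48 to 0.87 over 13 pairs, against −0.87 to 0.32 over 24 pairs of different numbers). With 2 libraries in a KO-labelled group these deviations mirror each other, so many of the pairs repeat 1 value with the sign turned. Between the WT-labelled groups alone r was 0.61 to 0.79 for the same number and −0.54 to 0.01 for different numbers. The numbers were taken to pair the samples. The blocked value is given where it changes a call or moves a count by over 1.5 times.

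The 40 genes and the lists of other cell cycle and marker genes were chosen with earlier results of these data known. Values by library are given for Slfn2 and for up to 3 members of a role and comparison with the smallest p. Of the other cell cycle genes, up to 4 passing genes of a role and comparison are named by size of change, with Cdkn1a, Cdkn1b, Rb1, Chek1 and Wee1 always. Coordinates are from GENCODE M21 and promoters from RefSeq.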

Additional observations from a re-analysis of the deposited data

Results flagged for a closer look

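For 9 genes the step from replicate number 1 to number 2 differed between the labelled genotypes in a test of that difference (KO-labelled minus WT-labelled, log2, limma with adjustment over all genes). The values were −0.73 for Aurka, −0.86 for Aurkb, −0.92 for Birc5, −0.57 for Ccna2, −0.76 for Ccnb1, −0.93 for Ccnd1, −0.61 for Cdk1, −0.63 for Foxm1 and −0.72 for Rrm2. That fit was added after the values were seen. Its calls rest on few libraries and did not hold when any 1 of the KO-labelled libraries was left out. Mcm2 was lower with IFN-β in all 3 WT-labelled pairs and higher in both KO-labelled pairs, and that difference of 0.16 did not pass its test (adjusted p = 1).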

How the results depend on the processing

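With the replicate block, which rests on the pairing of the numbers, the members called were 1 and 1 for IFN-β in WT-labelled and KO-labelled cells, and 10 and 9 between genotypes untreated and with IFN-β. edgeR with the block gave 1, 1, 10 and 9, and the block with the GC trend removed 1, 2, 10 and 11. DESeq2 called 4 between genotypes with IFN-β and 4 between numbers 3 and 2. With the libraries numbered 1 and 2 only, the genotype counts were 0 and 0 and the number step differed for 3. The step from number 1 to 2 was called for 11 within WT-labelled libraries. The cause of these shifts was not tested. With the block the interaction stayed at 0 calls, so it changed no other count between groups.

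Leaving out 1 library in turn gave 0 to 0 calls for IFN-β in each genotype and for the interaction, 0 to 2 between genotypes untreated and 0 to 2 with IFN-β. It gave 11 to 25 for number 2 against 1, 0 to 11 for 3 against 1, 0 to 4 for 3 against 2, 0 to 22 for the difference of the steps, and 3 to 26 and 3 to 27 between genotypes at numbers 1 and 2. With the block the ranges were 0 to 1 and 0 to 2 for IFN-β in WT-labelled and KO-labelled cells, 3 to 14 and 2 to 13 between genotypes, and 0 to 0 for the interaction. No gene result reversed. Each result was counted once per fit: with a library left out 649 such cases kept their side of the threshold and 361 lost it. Under other settings 630 cases kept it and 55 lost it. A fit with 1 library left in a group takes that library to vary like the other groups. Depth limits E2f2 most, at 71 reads in its lowest library.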
